A study of Danio rerio with 121 samples.

Results

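The cytochrome P450 genes of zebrafish embryos were followed over 9 stages by RNA-Seq of whole embryos. The members were all rows of the count table whose symbol begins with cyp, a family number and a subfamily letter, without the retinoic acid hydroxylases of the cyp26 family. The rule found 78 of 24801 gene symbols, in 15 families, and it used no measured value. Of these, 40 belong to family 2, 5 each to families 1 and 27, 4 each to families 3, 4 and 46, 3 each to families 8 and 11, and 2 each to families 7, 17 and 19. Families 20, 21, 24 and 39 have 1 member each.

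The embryos were of the RIKEN wild-type strain (RW), with no transgene and no treatment named in the labels. They were taken at the 6-, 10-, 15- and 20-somite stages (ss) and at 24, 32, 48, 72 and 96 hours postfertilization (hpf). The 121 libraries were made by Lasy-Seq, which reads the 3′ ends of transcripts, with 16 libraries each at 6 ss, 20 ss, 24, 48, 72 and 96 hpf, 8 each at 10 ss and 32 hpf, and 9 at 15 ss. The labels speak of a single embryo per sample and the study's methods of pooled embryos. The deposited sample sheet also lists a used number per library without saying what it counts. How many embryos each library stands for is therefore unsettled, and p-values measure the spread between these libraries.

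Cytochrome P450 enzymes are heme proteins that use molecular oxygen and electrons from a partner protein to oxidize small molecules. Families 1 to 4 mainly act on foreign compounds and fatty acids, and in the adult they are best known from the liver and the intestine. The families of higher number mostly have fixed substrates, such as cholesterol and bile acids, steroid hormones, and vitamin D. A zebrafish embryo lives on yolk through these stages while its liver, gut and steroid-producing interrenal gland form.

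The library totals ran from 866854 to 21646478 estimated counts, with a median of 3129763. The members together took a small part of each library, from 0.026% to 0.103% of its counts. The libraries fall into 3 sets by the form of their titles, called plain (52 libraries), S (29) and DrRyu (40) here. Only S libraries exist at 10 ss and only DrRyu libraries at 32 hpf, so at these stages a difference of stage is read through the other stages of the set. The used number changed with stage and set. It was 5 for plain and 1 for S libraries at 96 hpf, against 50 for plain and 25 for S libraries at 6 ss, and it was 50 for the plain libraries of 24, 48 and 72 hpf. At 96 hpf over 6 ss, and likewise at 96 over 72 hpf, this number and the stage cannot be told apart. None is listed for the DrRyu libraries, whose listed year is 2021, against 2020 for the plain and S libraries. Levels are given as CPM, a gene's count scaled to a fixed library total after TMM, a factor that evens out differences in composition between libraries. They are compared between stages of one gene, not between genes, except in sums over genes and shares of those sums. A gene was called higher or lower where its adjusted p over all genes tested was under 0.05 and its log2 fold change was 1 or more in size, in edgeR's quasi-likelihood test with Benjamini-Hochberg adjustment, from which every adjusted p here comes. In whole embryos, fewer cells of a type and less RNA per cell cannot be told apart.

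The summed level of the members dipped and came back. The libraries of 6 ss held 535, 590 and 669 CPM (lowest, median and highest), those of 20 ss 556, 612 and 899, those of 48 hpf 274, 354 and 435, and those of 96 hpf 498, 591 and 773. The libraries of 48 hpf lay below all those of 6 ss and of 96 hpf. Beneath similar totals the sum was less concentrated at 96 hpf, where the leading 5 members held 37.3% of the summed CPM, against 63.3% at 6 ss. The leading members were largely the same. *cyp2aa8*, *cyp2y3*, *cyp17a1* and *cyp20a1* were among the leading 5 at both stages, with *cyp2aa3* at 6 ss and *cyp3a65* at 96 hpf. Of the 78 members, 74 had a count in some library of 96 hpf and 63 in some library of 6 ss. Over all genes, the median number with a count in a library was 16662.5 at 96 hpf and 15109 at 6 ss. The share of all genes with a count in some library is not given, so these member counts support no statement.

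A filter of 1 count in at least 8 libraries left 73 members to test among 21638 genes. A gene can pass that filter through a single stage, so the counts of calls are set beside those of all genes tested and support no statement on their own. Over the 9 stages, 66 of the 73 members differed, against 78.0% of all genes tested. The other 7, *cyp2aa12*, *cyp2ae1*, *cyp2j20*, *cyp2k8*, *cyp2p10*, *cyp2x7* and *cyp27a1.2*, did not pass that test.

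At 96 hpf over 6 ss, 39 members were higher, against 31.3% of all genes, and 9 were lower, against 19.4%. The median log2 fold change was 1.79 over the members and 0.28 over all genes. From 6 ss to 24 hpf, 17 members were higher (19.1% of all genes were) and 8 lower (8.58% of all genes). From 24 to 48 hpf, 12 were higher (11.3%) and 9 lower (7.85%). From 48 to 72 hpf, 8 were higher (5.66%) and 2 lower (2.58%). From 72 to 96 hpf, 11 were higher (3.11%) and 1 lower (1.43%). These comparisons share libraries with one another.

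**Figure D1:**
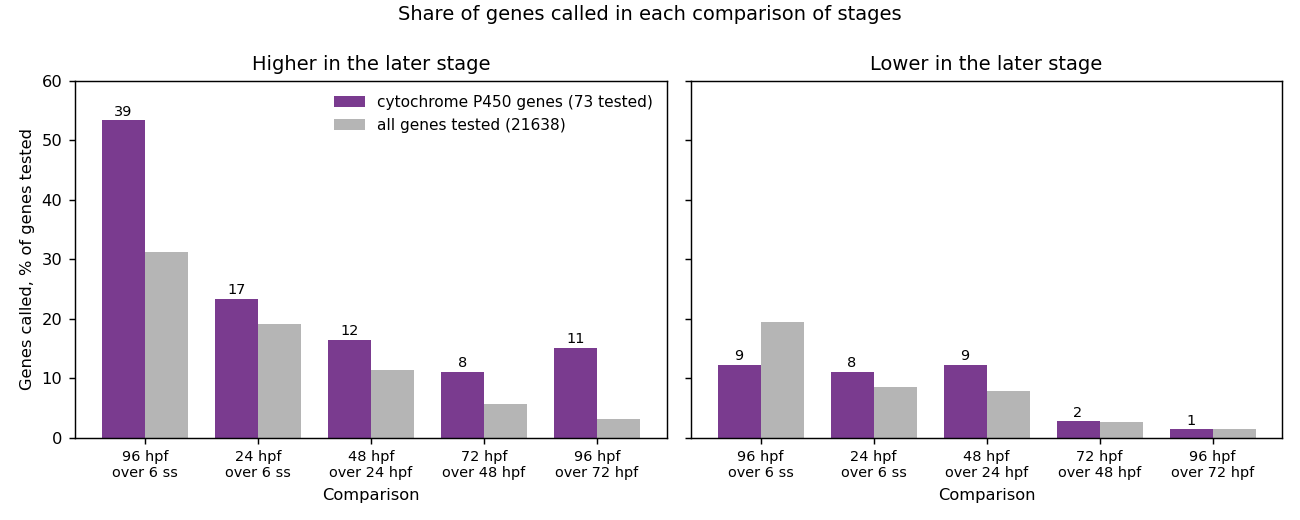
Share of genes called higher (left) or lower (right) in the later stage, as a percentage of the genes tested, for the 73 cytochrome P450 genes (purple, with the number of genes above each bar) and all 21638 genes (grey). At 96 hpf over 6 ss 39 members were higher and 9 lower, and 9 were lower at 48 over 24 hpf as well.

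The highest level in the fit, which sets the library sets on one scale, fell at 96 hpf for 28 of the 73 members, which is 38.4% of them and compares with 21.3% of all genes. It fell at 6 ss for 7 members, 9.59%, against 14.9% of all genes. Of the 39 members higher at 96 hpf over 6 ss, 16 had risen by 24 hpf, 12 rose between 24 and 48 hpf, 8 between 48 and 72 hpf and 9 between 72 and 96 hpf. A gene can count in several steps, and 10 of the 39 passed in none of them. Of the same 39, *cyp2x9* was lower by 24 hpf, and *cyp1a* and *cyp4t8* were lower from 24 to 48 hpf. The steps share libraries with the full span and the tally over all genes is not given, so these counts support no statement.

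**Figure D2:**
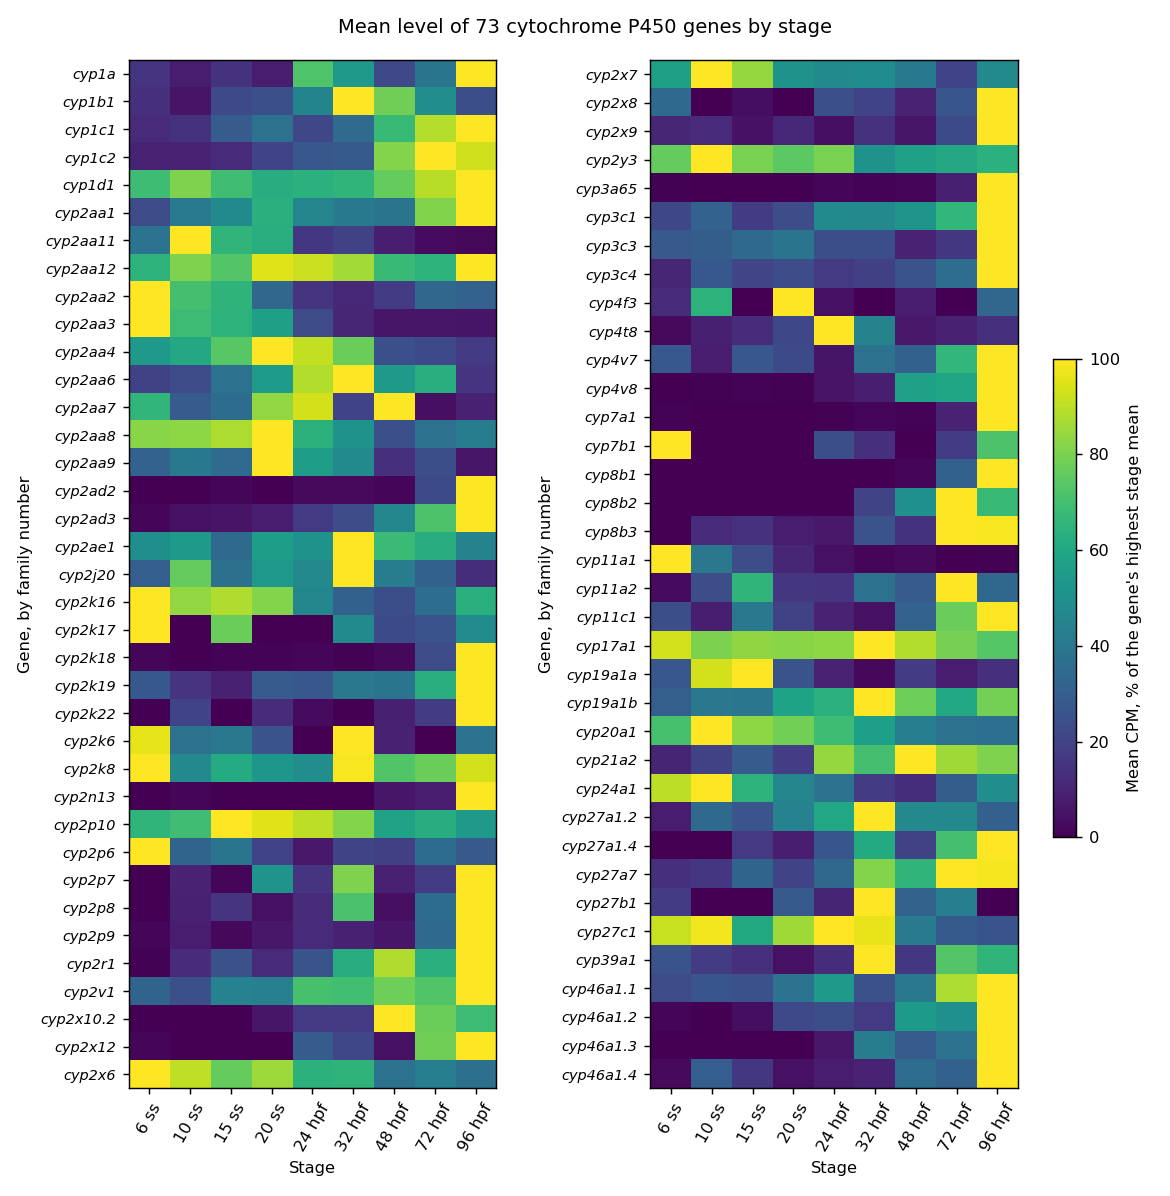
Mean CPM of each of the 73 tested members at the 9 stages, as a percentage of the gene's own highest stage mean, ordered by family number. Bright cells on the right mark genes such as *cyp7a1*, *cyp8b1* and *cyp3a65*, whose highest mean was at 96 hpf, and bright cells on the left mark genes such as *cyp11a1* and *cyp2aa3*, whose highest mean was at 6 ss.

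The bile acid genes *cyp7a1* and *cyp8b1* had their highest levels at 96 hpf. *cyp7a1* encodes the rate-limiting enzyme of bile acid synthesis, which hydroxylates cholesterol. Its libraries read 0, 0 and 2.61 CPM (lowest, median and highest) at 6 ss, 0, 0 and 1.24 at 48 hpf, 0, 0.765 and 17.7 at 72 hpf, and 3.49, 20.9 and 43.0 at 96 hpf. Every library of 96 hpf lay above every library of 6 ss, with a log2 fold change of 6.69 (SE 0.716, adjusted p = 2.51e-15). The gene also rose between 72 and 96 hpf, by a log2 fold change of 3.77 (SE 0.831, adjusted p = 0.000499), although the 2 stages overlapped.

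The earlier step of *cyp7a1*, from 48 to 72 hpf, passed with a log2 fold change of 2.70 (SE 0.652, adjusted p = 0.000895) and was lost in each library set alone. At 72 hpf the plain libraries had a median of 0.457 CPM and a highest value of 1.24, and the DrRyu libraries a median of 2.00 CPM and a highest value of 17.7, in a single library. Within the plain libraries the log2 fold change of this step was 0.20 (adjusted p = 0.901), and within the DrRyu libraries 4.62 (adjusted p = 0.0796). The difference between the sets, plain minus DrRyu, was -4.28 and did not pass (adjusted p = 0.0514).

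*cyp8b1* encodes the sterol hydroxylase that, in mammals, sets the share of cholic acid among bile acids. It had no count at 6, 10 or 15 ss, and its libraries read 0, 0.103 and 1.89 CPM at 48 hpf, 0.309, 7.47 and 20.2 at 72 hpf, and 14.7, 23.2 and 36.6 at 96 hpf. The lowest library of 96 hpf was thus above all of 48 hpf and above every library of 6 ss. With 834 counts at 96 hpf and none at 6 ss, it was at least 356-fold higher (adjusted p = 4.78e-25), taking 3 counts over the whole group as the floor. Folds given as at least here take the mean of the other group as read, without its counting error. Each daily step from 24 hpf on passed. The log2 fold change was 2.53 (SE 0.605, adjusted p = 0.000357) from 24 to 48 hpf, 4.12 (SE 0.454, adjusted p = 8.86e-13) from 48 to 72 hpf and 1.68 (SE 0.480, adjusted p = 0.0115) from 72 to 96 hpf. The first of these steps was 1.22 (adjusted p = 0.599) within the DrRyu libraries.

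The relatives of *cyp8b1* stayed near the limit of detection. *cyp8b2* had no count at 6 ss or 24 hpf, 18 counts at 48 hpf, 45 counts at 72 hpf and 12 counts at 96 hpf, and it was at least 6.83-fold higher at 48 over 24 hpf (adjusted p = 0.000881), a call lost under DESeq2, under a stricter filter and in the DrRyu libraries alone. *cyp8b3* had 11 counts at 96 hpf and none at 6 ss, at least 3.59-fold higher (adjusted p = 8.47e-05). Both calls at 96 hpf over 6 ss were absent under DESeq2 and under a stricter filter. *cyp7b1*, an oxysterol hydroxylase of bile acid synthesis in mammals, had 6 counts over the libraries of 96 hpf and 7 over those of 6 ss and passed in no comparison of stages.

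Marker genes of the liver and the intestine were read beside these genes. *fabp10a*, a fatty acid binding protein of hepatocytes, read 0, 0.574 and 5.68 CPM at 48 hpf, 25.3, 54.3 and 205 at 72 hpf, and 97.7, 359 and 725 at 96 hpf. Of 7 liver markers, 5 were higher at 96 hpf over 6 ss, where 31.3% of all genes were, and their summed level was 1785 to 3447 CPM at 96 hpf, against 855 to 1152 CPM at 6 ss, where *tfa* and *serpina1* already supplied most of it. Of 4 intestine markers 3 were higher over the full span, and all 4 from 72 to 96 hpf, where 3.11% of all genes were. Their summed level had medians of 499 CPM at 6 ss, 910 at 20 ss, 112 at 48 hpf and 537 at 96 hpf, and ran from 162 to 838 CPM at 96 hpf, against 384 to 581 CPM at 6 ss. Most of it was *fabp2*, the intestinal fatty acid binding protein, which averaged 330 CPM at 96 hpf, against 488 CPM at 6 ss. *fabp6*, the ileal bile acid binding protein, averaged 152 CPM at 96 hpf, against 5.72 CPM at 72 hpf. Markers of other tissues were higher as well. The 3 muscle markers, all called, summed to 35020 to 42690 CPM at 96 hpf, against 134 to 193 CPM at 6 ss, and the 3 erythroid markers, all called, to 2435 to 5779 CPM, against 16.2 to 48.0 CPM. Of 3 neuron markers 2 were called higher, and their sum was 169 to 330 CPM at 96 hpf, against 41.2 to 73.3 CPM at 6 ss. All 7 liver and 4 intestine markers had counts at 96 hpf, and their part in the levels of the P450 genes was not tested.

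**Figure D3:**
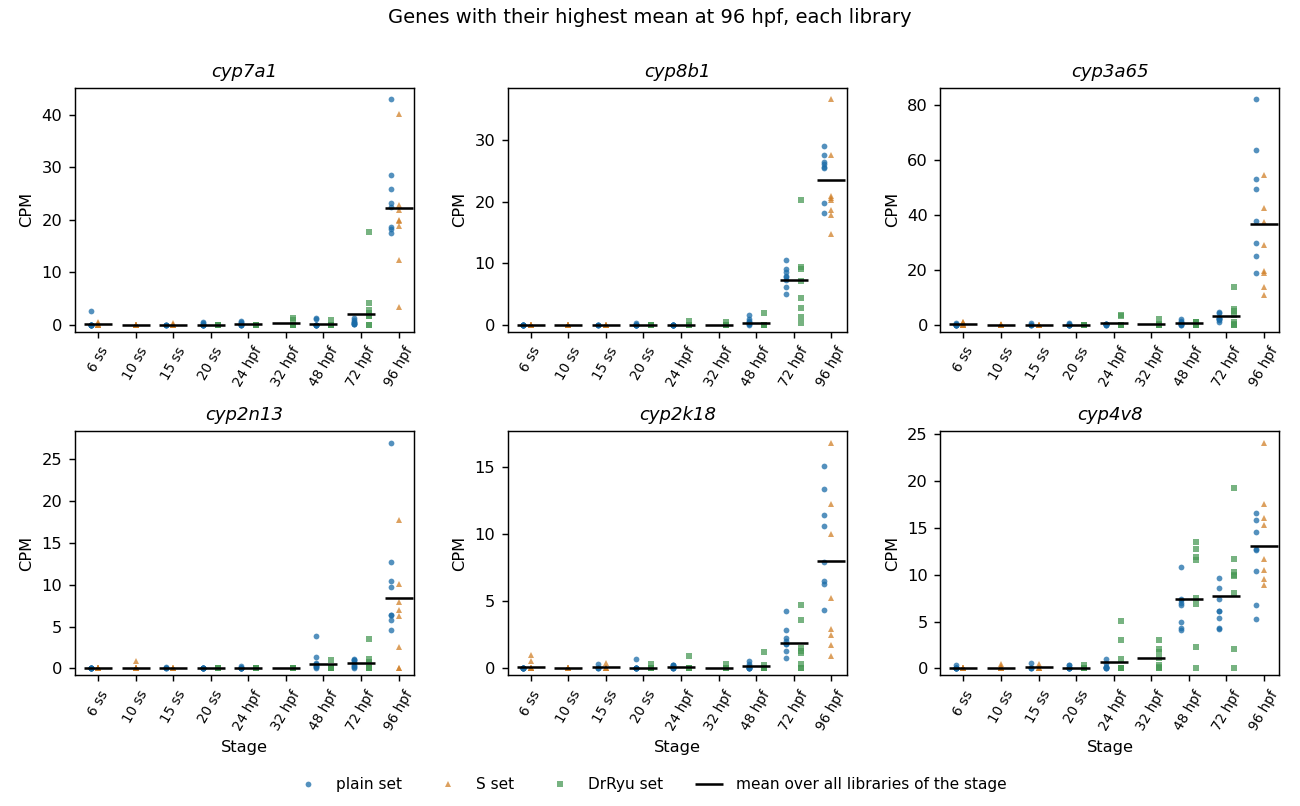
CPM of each library (points, coloured by library set) and the mean over all libraries of a stage (black bars) for 6 genes over the 9 stages. *cyp7a1*, *cyp3a65*, *cyp2n13* and *cyp2k18* had means under 1 CPM through 48 hpf and their highest values at 96 hpf, while *cyp8b1* averaged 7.31 CPM at 72 hpf and *cyp4v8* 7.44 CPM at 48 hpf.

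Several other sterol hydroxylase genes were higher at 96 hpf over 6 ss. Family 27 holds mitochondrial enzymes, and in mammals CYP27A1 oxidizes the side chain of sterols. *cyp27a1.4* had no count at 6 ss and read 0, 2.15 and 9.66 CPM at 96 hpf, at least 43.9-fold higher (adjusted p = 2.83e-09, a call lost in the S libraries alone), and it was already at least 11.8-fold higher at 24 hpf (adjusted p = 0.000404). Its neighbour *cyp27a1.2* had 16 counts at 96 hpf and 6 at 6 ss and passed in no comparison. It was called higher at 96 hpf over 6 ss under DESeq2 and with RLE size factors, and at 24 hpf over 6 ss without the set term. *cyp27a1.2* and *cyp27a1.4* lie side by side, so that reads could be shared between them. *cyp27a7* read 0, 0.641 and 3.33 CPM at 6 ss, 2.72, 7.05 and 8.52 at 32 hpf, and 3.71, 6.35 and 15.8 at 96 hpf. Its libraries of 96 hpf did not overlap with those of 6 ss, and the log2 fold change was 2.84 (SE 0.423, adjusted p = 2.03e-09).

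The family 46 genes are relatives of the enzyme that clears cholesterol from neurons in mammals, and the 4 zebrafish copies lie in one row. All 4 were higher at 96 hpf over 6 ss, where 31.3% of all genes were. *cyp46a1.1* read 0, 3.43 and 14.6 CPM at 96 hpf, against 0, 0.781 and 4.15 CPM at 6 ss, with a log2 fold change of 2.09 (SE 0.650, adjusted p = 0.00317). *cyp46a1.4* had 118 counts at 96 hpf, against 4 at 6 ss, with a log2 fold change of 4.84 (SE 0.921, adjusted p = 1.75e-06). *cyp46a1.2* had 110 counts at 96 hpf and 3 at 6 ss, a ratio of 46.4 after scaling for depth (95% exact interval 15.5 to 228, adjusted p = 6.22e-07). *cyp46a1.3* had 25 counts at 96 hpf and none at 6 ss, at least 9.44-fold higher (adjusted p = 2.33e-05), a call that was absent under DESeq2. The groups overlapped for each copy, and neighbouring copies could share reads. Counting intervals here cover counting error only, as the reads carry no molecular identifiers. The oxysterol hydroxylase gene *cyp39a1* had 13 counts at 96 hpf and 6 at 6 ss and passed in no comparison of stages, though the plain libraries alone gave a log2 fold change of 4.5 over the full span (adjusted p = 0.00237).

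All 4 members of family 3, whose enzymes oxidize many drugs and steroids, were higher at 96 hpf over 6 ss, where 31.3% of all genes were. *cyp3a65* is the family member known from the liver and intestine of zebrafish larvae. It read 0, 0 and 1.00 CPM at 6 ss, 0, 0.427 and 2.28 at 48 hpf, 0, 2.43 and 13.9 at 72 hpf, and 11.1, 33.5 and 82.1 at 96 hpf. The libraries of 96 hpf lay above all of 6 ss, with a log2 fold change of 6.78 (SE 0.604, adjusted p = 4.80e-20). Both last steps passed, with log2 fold changes of 2.25 (SE 0.514, adjusted p = 0.000400) from 48 to 72 hpf and 3.88 (SE 0.552, adjusted p = 1.62e-08) from 72 to 96 hpf. The first of the 2 steps was 3.13 (adjusted p = 0.262) within the DrRyu libraries.

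The cyp3c genes, 3 neighbours, had counts from the first stage. *cyp3c1* climbed gradually, with 2.01, 5.46 and 12.4 CPM at 6 ss, 7.58, 13.1 and 19.3 at 24 hpf, 2.16, 19.6 and 28.5 at 72 hpf, and 17.4, 27.8 and 47.1 at 96 hpf. Its 96 hpf libraries did not overlap with those of 6 ss (log2 fold change 2.21, SE 0.223, adjusted p = 7.56e-17). *cyp3c3* and *cyp3c4* instead moved late. *cyp3c3* averaged 6.81 CPM at 96 hpf, against 1.11 CPM at 72 hpf, a log2 fold change of 2.84 (SE 0.654, adjusted p = 0.000888), and *cyp3c4* averaged 11.6 CPM at 96 hpf, against 4.12 CPM at 72 hpf, a log2 fold change of 1.93 (SE 0.501, adjusted p = 0.00397). In both the stages overlapped.

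Several family 1 genes are induced through the aryl hydrocarbon receptor by planar pollutants, and *cyp1a* is the usual marker of such exposure. In these untreated embryos *cyp1a* was high at 24 hpf and again at 96 hpf. Its libraries read 0, 0 and 2.05 CPM at 20 ss, 0, 5.42 and 13.9 at 24 hpf, 0, 1.35 and 6.71 at 48 hpf, and 0, 5.72 and 23.5 at 96 hpf, with overlap between all of these stages. The log2 fold change was 3.22 (SE 0.71, adjusted p = 6.42e-05) at 24 hpf over 6 ss and 2.96 (SE 0.614, adjusted p = 1.03e-05) at 96 hpf over 6 ss. From 24 to 48 hpf it fell by 1.58 on the log2 scale (SE 0.558, adjusted p = 0.0188), though within the DrRyu libraries alone the change was -0.95 (adjusted p = 0.631).

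*cyp1b1*, known from the developing eye, was highest in the middle stages. Only DrRyu libraries exist at 32 hpf, and in the fit with the set term *cyp1b1* was highest at 48 hpf. It read 0, 1.01 and 3.43 CPM at 6 ss, 0, 2.83 and 19.5 at 24 hpf, 1.42, 8.98 and 16.3 at 32 hpf, 0, 5.60 and 18.3 at 48 hpf, and 0, 1.5 and 10.0 at 96 hpf. It was higher at 24 hpf over 6 ss (log2 fold change 1.78, SE 0.582, adjusted p = 0.00827) and did not pass over the full span (0.75, adjusted p = 0.206; 1.07 and 0.0450 under DESeq2).

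The neighbours *cyp1c1* and *cyp1c2* were higher over the full span. *cyp1c1* read 0, 1.28 and 5.29 CPM at 6 ss, 0, 2.97 and 4.90 at 24 hpf, 3.76, 8.13 and 12.7 at 48 hpf, and 3.55, 12.0 and 18.2 at 96 hpf. Its log2 fold change was 1.45 (SE 0.454, adjusted p = 0.00573) at 24 hpf over 6 ss, where it was 0.74 (adjusted p = 0.112) without the set term. It was 1.66 (SE 0.349, adjusted p = 3.74e-05) from 24 to 48 hpf and 3.12 (SE 0.394, adjusted p = 3.96e-12) over the full span. *cyp1c2* was lower in counts, with means of 2.40 CPM at 96 hpf and 0.242 CPM at 6 ss, and was called in the same 3 comparisons. Its call at 24 hpf over 6 ss was lost without the set term, and so was that from 24 to 48 hpf, which also passed in neither set alone. *cyp1d1* stood between 4.33 and 38.3 CPM in all libraries and was called in no comparison.

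Of 8 genes of the aryl hydrocarbon receptor pathway, 6 were tested. At 96 hpf over 6 ss 1 of these was higher, where 31.3% of all genes were. This was *ahr2*, the receptor that carries most of the dioxin response in zebrafish, at 8.14, 16.6 and 26.8 CPM at 96 hpf, against 0, 1.05 and 3.82 CPM at 6 ss, without overlap (log2 fold change 3.78, adjusted p = 6.52e-20). *tiparp*, another target of the receptor, averaged 12.9 CPM at 96 hpf and 24.1 CPM at 6 ss and was not called.

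In family 2 the members with a known row of neighbours are described by row, since near-identical neighbours can share reads and single values within a row are uncertain. The neighbour order was taken from RefSeq's gene table of the GRCz12tu assembly, which held 70 of the 78 symbols. The first row, on chromosome 20, runs *cyp2n13*, *cyp2ad6*, *cyp2ad2*, *cyp2v1*, *cyp2ad3*, *cyp2p6* to *cyp2p10* and *cyp2j20*. Enzymes related to this row, the CYP2J group of mammals, oxidize arachidonic acid and foreign compounds. Of its 11 genes 10 were tested. At 96 hpf over 6 ss 7 were higher, against 31.3% of all genes, and 1 was lower, against 19.4%.

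*cyp2n13* had no count at 6 ss, and its libraries read 0, 0.112 and 3.85 CPM at 48 hpf, 0, 0.337 and 3.54 at 72 hpf, and 0, 6.70 and 27.0 at 96 hpf. It was at least 128-fold higher at 96 hpf over 6 ss (adjusted p = 1.41e-13, a call lost in the S libraries alone), and it rose from 72 to 96 hpf by a log2 fold change of 3.48 (SE 0.925, adjusted p = 0.00572). It had 27 counts at 48 hpf and 2 at 24 hpf, a ratio of 15.1 (95% exact interval 3.79 to 131, adjusted p = 0.000254), which did not pass in the DrRyu libraries alone. At 96 hpf 2 of the 16 libraries had no count of the gene, while its highest values were also at this stage.

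*cyp2ad2* also had no count at 6 ss, then 5 counts at 48 hpf, 108 counts at 72 hpf and 177 counts at 96 hpf. The gene was at least 73.3-fold higher at 96 hpf over 6 ss (adjusted p = 8.27e-10), and its log2 fold change from 48 to 72 hpf was 3.84 (SE 0.835, adjusted p = 0.000228), a call lost in the DrRyu libraries alone. *cyp2ad3* had a higher median at each later stage given, with 0, 0.115 and 2.26 CPM at 6 ss, 0, 3.73 and 10.2 at 24 hpf, 4.13, 11.1 and 23.8 at 48 hpf, 7.24, 15.8 and 37.0 at 72 hpf, and 17.3, 23.5 and 32.2 at 96 hpf. Its 96 hpf libraries all lay above those of 6 ss (log2 fold change 5.69, SE 0.453, adjusted p = 2.42e-23). *cyp2v1* had a smaller rise, with means of 15.5 CPM at 96 hpf and 4.96 CPM at 6 ss (log2 fold change 1.64, SE 0.244, adjusted p = 1.76e-09).

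The cyp2p genes of the row went different ways. *cyp2p9* read 0, 0.384 and 1.31 CPM at 6 ss, 0, 2.94 and 5.48 at 24 hpf, 0, 1.70 and 3.00 at 48 hpf, 0, 5.66 and 23.5 at 72 hpf, and 9.30, 18.8 and 40.4 at 96 hpf. The 96 hpf libraries did not overlap with those of 6 ss, and the log2 fold change was 5.80 (SE 0.572, adjusted p = 2.03e-17). *cyp2p6* was the one gene of the row that was lower. It read 2.46, 4.59 and 15.3 CPM at 6 ss, 0, 0.0945 and 2.28 at 24 hpf, and 0, 1.90 and 4.00 at 96 hpf, so that 24 hpf lay wholly below 6 ss. The gene fell by 4.87 on the log2 scale to 24 hpf (SE 0.696, adjusted p = 1.17e-09) and by 1.84 over the full span (SE 0.587, adjusted p = 0.00417).

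The summed counts of *cyp2p7* went up and down, with none at 6 ss, 106 at 20 ss in 7 of 16 libraries, 31 at 24 hpf and 144 at 32 hpf. They were then 23 at 48 hpf, 52 at 72 hpf and 105 at 96 hpf. At 32 hpf only DrRyu libraries exist, and in the fit with the set term the gene was highest at 96 hpf. Its mean was 2.23 CPM at 32 hpf and 2.76 CPM at 96 hpf. At 96 hpf it was at least 42.0-fold higher than at 6 ss (adjusted p = 4.00e-08) and higher than at 72 hpf by a log2 fold change of 3.26 (SE 0.908, adjusted p = 0.00865; 2.45 and 0.0724 within the plain libraries). *cyp2p8* had 21 counts at 96 hpf and none at 6 ss, at least 9.98-fold higher (adjusted p = 3.46e-05), and lost the call under DESeq2. *cyp2p10*, at 3.16 CPM at 96 hpf and 3.86 CPM at 6 ss, and *cyp2j20*, with 2 counts at 96 hpf and 6 at 6 ss, passed in no comparison. *cyp2ad6* had 22 counts in 6 libraries and was not tested.

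The other row of 11, on chromosome 23, holds 10 cyp2aa genes and *cyp2ae1*, fish genes whose substrates are little known. At 96 hpf over 6 ss 5 of them were lower, against 19.4% of all genes, and 1 was higher, against 31.3%. *cyp2aa3* read 50.8, 69.9 and 96.9 CPM at 6 ss, 13.6, 39.0 and 84.6 at 20 ss, 1.59, 15.8 and 30.8 at 24 hpf, 0, 4.00 and 11.6 at 48 hpf, and 0, 3.85 and 10.7 at 96 hpf. The libraries of 24 and of 96 hpf all lay below those of 6 ss. It fell by 4.11 on the log2 scale at 96 hpf over 6 ss (SE 0.302, adjusted p = 7.02e-26), with called steps to 24 hpf (log2 fold change -1.63, SE 0.288, adjusted p = 6.10e-07) and on to 48 hpf (-1.90, SE 0.285, adjusted p = 9.06e-09; -1.52 and 0.0774 within the DrRyu libraries).

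*cyp2aa4* was highest at 20 ss and 24 hpf. It read 24.4, 35.2 and 57.5 CPM at 6 ss, 34.0, 62.0 and 123 at 20 ss, 32.3, 63.8 and 83.7 at 24 hpf, 0.415, 17.2 and 28.4 at 48 hpf, and 3.04, 10.8 and 21.4 at 96 hpf. The libraries of 48 hpf did not overlap with those of 24 hpf (log2 fold change -1.88, SE 0.184, adjusted p = 7.64e-17), nor those of 96 hpf with those of 6 ss (-1.68, SE 0.199, adjusted p = 1.98e-13).

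*cyp2aa8* had its step at the same time. It read 110, 143 and 170 CPM at 6 ss, 121, 164 and 284 CPM at 20 ss, 76.2, 98.6 and 181 at 24 hpf, 29.1, 38.0 and 71.8 at 48 hpf, and 46.1, 65.9 and 105 at 96 hpf. From 24 to 48 hpf it fell by 1.38 on the log2 scale without overlap (SE 0.0986, adjusted p = 7.16e-26). At 96 hpf all libraries were below those of 6 ss, but the log2 fold change of -0.98 (adjusted p = 5.16e-17) missed the fold limit; within the plain libraries it was -1.22.

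The remaining lower genes of the row differed in timing. *cyp2aa2* averaged 3.48 CPM at 24 hpf, against 22.9 CPM at 6 ss, without overlap (log2 fold change -2.39, SE 0.399, adjusted p = 1.5e-07), and 7.19 CPM at 96 hpf (-1.64 over 6 ss, SE 0.343, adjusted p = 1.26e-05). *cyp2aa11* had its highest mean at 10 ss, at 2.60, 10.8 and 22.0 CPM. Only S libraries exist at 10 ss, and in the fit with the set term its highest level fell at 20 ss. At 96 hpf *cyp2aa11* read 0, 0 and 1.74 CPM, against 0.877, 4.08 and 10.0 CPM at 6 ss. Its full-span log2 fold change was -4.29 (SE 0.669, adjusted p = 8.19e-09), and none of the 4 steps passed. *cyp2aa9* fell by 2.10 on the log2 scale from 24 to 48 hpf (SE 0.245, adjusted p = 6.57e-13), by 1.07 from 72 to 96 hpf (SE 0.328, adjusted p = 0.0197, a call absent under DESeq2) and by 2.37 over the full span (SE 0.291, adjusted p = 1.27e-12).

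*cyp2aa1* was the one gene of the row that was higher at 96 hpf, at 0, 2.94 and 13.7 CPM, against 0, 0.415 and 3.07 CPM at 6 ss (log2 fold change 2.27, SE 0.621, adjusted p = 0.000793). *cyp2aa6* fell by 1.35 on the log2 scale from 24 to 48 hpf (SE 0.356, adjusted p = 0.00110). *cyp2aa12*, between 0 and 11.9 CPM, and *cyp2ae1*, between 0 and 8.64 CPM, passed in no comparison.

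**Figure D4:**
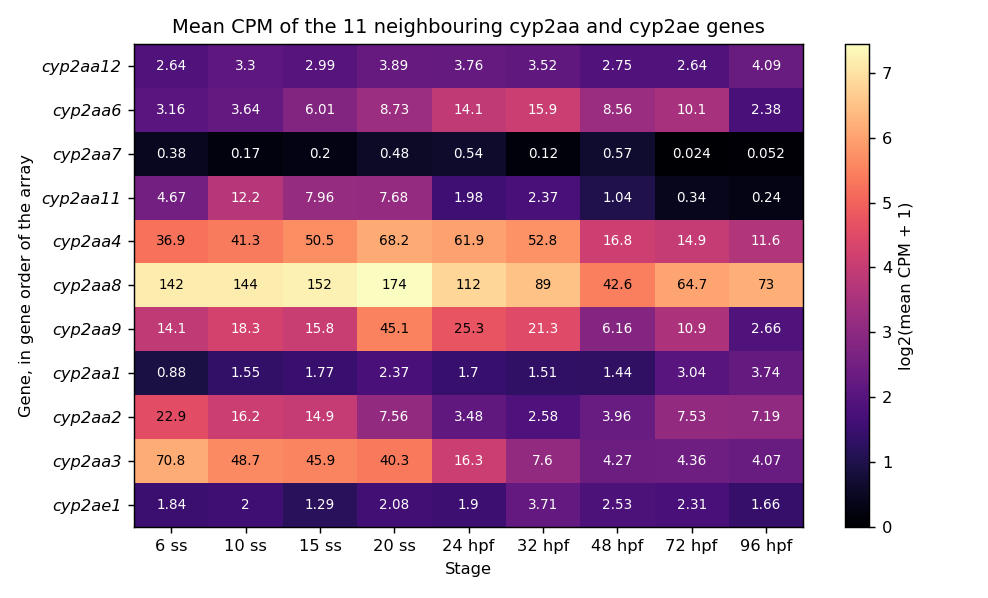
Mean CPM of the 11 genes of the cyp2aa row at the 9 stages, in gene order from top to bottom, with colour on the scale log2(mean CPM + 1) and the mean written in each cell. *cyp2aa3* goes down from 70.8 CPM at 6 ss, *cyp2aa4* and *cyp2aa8* are highest at 20 ss at 68.2 and 174 CPM, and *cyp2aa7* stays below 1 CPM throughout.

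Some genes of the row differed between library sets of one stage. At 20 ss *cyp2aa9* averaged 20.7 ± 4.28 CPM in plain libraries and 69.4 ± 23.6 CPM in DrRyu libraries (SD, n = 8 each), without overlap. At 48 hpf *cyp2aa6* averaged 2.22 ± 1.24 CPM in plain libraries and 14.9 ± 8.88 CPM in DrRyu libraries (SD, n = 8 each), and its step from 24 to 48 hpf was -2.18 within plain (adjusted p = 2.02e-05) and -0.23 within DrRyu (adjusted p = 0.800). *cyp2aa7* had 2 counts at 72 hpf, and at 48 hpf none in the plain libraries and 35 counts in 3 of the DrRyu libraries. It was called lower at 72 over 48 hpf with a ratio of 0.0525 (95% exact interval 0.00612 to 0.204, adjusted p = 0.00650), a call lost under DESeq2 and under a stricter filter.

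The sets' steps were also compared by an interaction term. For 48 over 24 hpf, 2 of 73 members passed, against 4.58% of all genes: *cyp2aa7* (plain minus DrRyu, -6.99 on the log2 scale, adjusted p = 0.0132) and *cyp2x12* (6.21, adjusted p = 0.0217). The value of *cyp2x12* rests on 16 counts in 1 DrRyu library of 24 hpf and 3 counts in 1 plain library of 48 hpf, with no count in the plain libraries of 24 hpf or the DrRyu libraries of 48 hpf. That of *cyp2aa7* has no count in the plain libraries of 48 hpf behind it. For 72 over 48 hpf *cyp2aa7* passed (6.73, adjusted p = 0.0335), again over groups without a count, against 2.04% of all genes. For 96 hpf over 6 ss in plain against S, 0 of 73 members passed in edgeR, against 0.795% of all genes. An unadjusted p under 0.05 in this edgeR test was held by 8 members here. For 48 over 24 hpf 12 members held one, and for 72 over 48 hpf 12. The share of all genes under that limit is not given, so these counts support no statement.

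The cyp2k genes form a row of 8 on chromosome 3, with *cyp2k22* apart. *cyp2k18* was at or near 0 until 48 hpf, at 0, 0 and 1.2 CPM, and then read 0, 1.67 and 4.72 CPM at 72 hpf and 0.913, 7.20 and 16.8 CPM at 96 hpf. The log2 fold change was 3.02 (SE 0.635, adjusted p = 0.000103) from 48 to 72 hpf, 1.95 (SE 0.673, adjusted p = 0.0450) from 72 to 96 hpf and 5.97 (SE 0.754, adjusted p = 5.21e-12) over the full span, where the groups overlapped only between 0.913 and 1.00 CPM. The first step was 2.88 (adjusted p = 0.251) within the DrRyu libraries. *cyp2k19* had counts at every stage and averaged 8.43 CPM at 96 hpf, against 2.32 CPM at 6 ss (log2 fold change 1.88, SE 0.455, adjusted p = 0.000155).

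*cyp2k16* fell and rose again, at 11.8, 17.7 and 29.2 CPM at 6 ss, 0, 8.19 and 20.8 at 24 hpf, 0, 4.41 and 10.3 at 48 hpf, 2.46, 5.54 and 16.7 at 72 hpf, and 2.91, 11.5 and 19.8 at 96 hpf. The fall to 24 hpf was 1.31 on the log2 scale (SE 0.273, adjusted p = 2.39e-05), a call lost in the plain libraries, the only set with both stages. The rise from 72 to 96 hpf was 1.05 (SE 0.282, adjusted p = 0.00564) and was lost without the set term, and the stages overlapped in both steps. *cyp2k8*, between 0 and 12.5 CPM, passed in no comparison.

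Other cyp2k genes had few counts. *cyp2k6*, with no count at 24 hpf and 4 at 6 ss, was at least 2.86-fold lower (adjusted p = 0.00411), and *cyp2k17*, with no count at 24 hpf and 6 at 6 ss, at least 4.30-fold lower (adjusted p = 0.0321). Both folds leave out the counting error of the 4 and 6 counts, so the true bounds are lower. *cyp2k22* had 9 counts at 96 hpf, 6 of them in 1 S library at 7.52 CPM and 3 in 1 plain library, and none at 6 ss. Its call (adjusted p = 0.000239) was lost when the libraries of low total were left out, and in the plain and the S libraries alone. All these calls were lost under DESeq2. *cyp2k20* had 1 count in all, *cyp2k21* none, and neither was tested.

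In the cyp2x genes, 4 of which are neighbours on chromosome 25, *cyp2x9* rose late and *cyp2x6* fell. *cyp2x9* read 0, 1.58 and 4.26 CPM at 6 ss, 0, 0.427 and 1.55 at 24 hpf, 0.904, 2.32 and 7.37 at 72 hpf, and 2.91, 14.7 and 27.3 at 96 hpf. It fell by 1.74 on the log2 scale to 24 hpf (SE 0.617, adjusted p = 0.0157; -1.09 and 0.106 in the plain libraries, the only set with both stages), and rose by 1.68 from 48 to 72 hpf (SE 0.530, adjusted p = 0.0145) and by 2.72 from 72 to 96 hpf (SE 0.585, adjusted p = 0.000313). The step to 72 hpf passed in neither set alone. *cyp2x6* averaged 2.94 CPM at 96 hpf, against 7.92 CPM at 6 ss (log2 fold change -1.41, SE 0.339, adjusted p = 0.000142), and in the S libraries alone the change was -0.70 (adjusted p = 0.136). *cyp2x7*, between 0 and 6.86 CPM, and *cyp2x8*, with 18 counts at 96 hpf and 9 at 6 ss, were called in no comparison of stages.

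*cyp2x10.2*, which lies apart on chromosome 7, had no count at 6 ss, 61 counts at 24 hpf, 272 counts at 48 hpf and 71 counts at 96 hpf. Depth differed between these stages, and the means were 0.544 CPM at 24 hpf, 3.165 CPM at 48 hpf and 2.17 CPM at 96 hpf. At 96 hpf over 6 ss it was called higher, a call lost in the S libraries alone. The gene was at least 8.26-fold higher at 24 hpf over 6 ss (adjusted p = 1.85e-05) and rose from 24 to 48 hpf by a log2 fold change of 3.24 (SE 0.729, adjusted p = 0.000148), to 0, 3.9 and 9.77 CPM at 48 hpf. *cyp2x12* had 33 counts at 96 hpf, in 5 libraries, and 1 at 6 ss, a ratio of 41.7 (95% exact interval 6.98 to 1700, adjusted p = 0.000282), and the call was lost under DESeq2. Its 68 counts at 72 hpf against 3 at 48 hpf gave a ratio of 20.8 (95% exact interval 6.83 to 104, adjusted p = 0.00903), a call lost under DESeq2, under a stricter filter and in each set alone.

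*cyp2y3*, a family 2 gene outside these rows, had stage medians of 34.2 to 80.4 CPM and was called in no comparison. *cyp2u1*, whose human relative hydroxylates long-chain fatty acids, had 25 counts in 4 libraries and was not tested.

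Family 4 enzymes hydroxylate fatty acids at the chain end. *cyp4t8* was transient. It read 0, 0.112 and 3.49 CPM at 6 ss, 0, 5.79 and 12.8 at 20 ss, 13.1, 27.6 and 35.7 at 24 hpf, 6.39, 12.9 and 16.1 at 32 hpf, 0, 1.13 and 12.2 at 48 hpf, and 0, 2.67 and 20.1 at 96 hpf. All libraries of 24 hpf lay above all of 6 ss and all of 48 hpf. The log2 fold change was 5.38 at 24 hpf over 6 ss (SE 0.562, adjusted p = 1.35e-15), -3.83 at 48 over 24 hpf (SE 0.455, adjusted p = 1.28e-12), and 2.06 at 96 hpf over 6 ss (SE 0.546, adjusted p = 0.000526), where the plain libraries alone gave 1.16 (adjusted p = 0.0757).

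*cyp4v8* and *cyp4v7* are relatives of the human CYP4V fatty acid hydroxylase, which is known from an eye disease. *cyp4v8* read 0, 0 and 0.370 CPM at 6 ss, 0, 0.0634 and 5.03 at 24 hpf, 0, 7.14 and 13.5 at 48 hpf, and 5.29, 12.7 and 24.1 at 96 hpf. Its 463 counts at 96 hpf against 1 at 6 ss gave a ratio of 585 (95% exact interval 105 to 23200, adjusted p = 1.11e-20), and no library of 96 hpf overlapped with 6 ss. The main step was from 24 to 48 hpf, with a log2 fold change of 3.49 (SE 0.462, adjusted p = 1.11e-10). *cyp4v7* averaged 2.54 CPM at 96 hpf and 0.695 CPM at 6 ss (log2 fold change 1.79, SE 0.735, adjusted p = 0.0268; 1.70 and 0.0675 within the plain libraries). *cyp4f3* had 7 counts at 96 hpf, in 2 libraries, and none at 72 hpf, at least 4.81-fold higher (adjusted p = 0.0174). This call was lost under DESeq2, under a stricter filter, with a replicate block and in the plain libraries, the only set with both stages.

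The steroid hormone genes differed in timing. *cyp11a1* encodes the side-chain cleavage enzyme that turns cholesterol into pregnenolone, and in zebrafish its RNA is known from the egg and the yolk syncytial layer. It read 11.7, 25.4 and 46.9 CPM at 6 ss, 7.24, 9.33 and 12.5 at 10 ss, 1.48, 5.10 and 9.75 at 15 ss, 0, 2.46 and 8.46 at 20 ss, 0, 0.365 and 6.36 at 24 hpf, and 0, 0 and 1.24 at 96 hpf. Every library of 24 and of 96 hpf lay below every one of 6 ss. It fell by 5.29 on the log2 scale to 24 hpf (SE 0.612, adjusted p = 2.40e-13) and by 6.91 over the full span (SE 0.680, adjusted p = 1.83e-17). A further step from 48 to 72 hpf, -2.50 (SE 0.686, adjusted p = 0.00395), passed in neither set alone.

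The paralogue *cyp11a2*, which serves the steroid glands, had 36 counts at 72 hpf, 6 at 96 hpf and 1 at 6 ss. The ratio of 96 hpf over 6 ss was 7.58 with a 95% exact interval of 0.920 to 349, and its call (adjusted p = 0.0368) was lost under DESeq2 and in the plain libraries alone. The enzymes of the last steps to cortisol, *cyp21a2* and *cyp11c1*, were both higher at 96 hpf. *cyp21a2* averaged 1.54 CPM at 96 hpf, against 0.199 CPM at 6 ss (log2 fold change 2.76, SE 0.766, adjusted p = 0.000963), with an adjusted p of 0.0907 in the S libraries alone. Its means were 1.61 CPM at 24 hpf and 1.91 CPM at 48 hpf. At 24 hpf over 6 ss it was called only under DESeq2 and without the set term. From 24 to 48 hpf its log2 fold change was 2.69 within plain, where it was called, and -0.36 within DrRyu. The difference between these sets did not pass (adjusted p = 0.166). *cyp11c1* read 0, 0.751 and 2.87 CPM at 6 ss, 0, 0 and 1.76 at 24 hpf, 0, 0.825 and 3.31 at 48 hpf, and 0.369, 3.01 and 6.26 at 96 hpf. Its log2 fold change was 1.86 from 24 to 48 hpf (SE 0.663, adjusted p = 0.0193; 1.37 and 0.0914 within the plain libraries) and 2.04 over the full span (SE 0.663, adjusted p = 0.00483).

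*cyp17a1*, the hydroxylase and lyase on the way to androgens, varied little. Its libraries of all stages lay between 25.2 and 61.7 CPM, with 27.4, 32.6 and 41.3 CPM at 96 hpf, against 35.4, 43.4 and 53.1 CPM at 6 ss, and the full-span log2 fold change of -0.34 (adjusted p = 0.000374) missed the fold limit. *cyp17a2*, which lacks the lyase activity, had 24 counts in 3 libraries and was not tested.

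Aromatase makes estrogens from androgens, and zebrafish have an ovarian form, *cyp19a1a*, and a brain form of radial glia, *cyp19a1b*. *cyp19a1b* read 3.71, 6.97 and 15.3 CPM at 96 hpf, against 0, 2.52 and 5.60 CPM at 6 ss, with a log2 fold change of 1.38 (SE 0.328, adjusted p = 0.000114). Its means were 6.01 CPM at 24 hpf, 9.44 CPM at 32 hpf and 7.46 CPM at 96 hpf. Only DrRyu libraries exist at 32 hpf, and in the fit with the set term its highest level fell at 96 hpf. *cyp19a1a* averaged 2.68 CPM at 10 ss and 2.87 CPM at 15 ss, and stayed under 1 CPM on average at the other stages. It differed over the 9 stages but was called in none of the 5 comparisons.

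Of 8 partner genes of steroid synthesis 3 were higher at 96 hpf over 6 ss, against 31.3% of all genes, and 1 lower, against 19.4%. *star*, which brings cholesterol to the side-chain cleavage enzyme, read 1.97, 6.56 and 14.6 CPM at 96 hpf, against 2 counts in all at 6 ss. *hsd11b2*, which inactivates cortisol, averaged 18.0 CPM at 96 hpf and 1.09 CPM at 6 ss (log2 fold change 3.98, adjusted p = 5.65e-17). *hsd3b2* had no count at 96 hpf and 9 at 6 ss. Of the interrenal markers *mc2r*, the corticotropin receptor, had no count at 96 hpf or 6 ss and was not tested. The interrenal marker *nr5a1a* went the other way from *star*, at means of 3.16 CPM at 96 hpf and 5.83 CPM at 6 ss, and was not called.

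**Figure D5:**
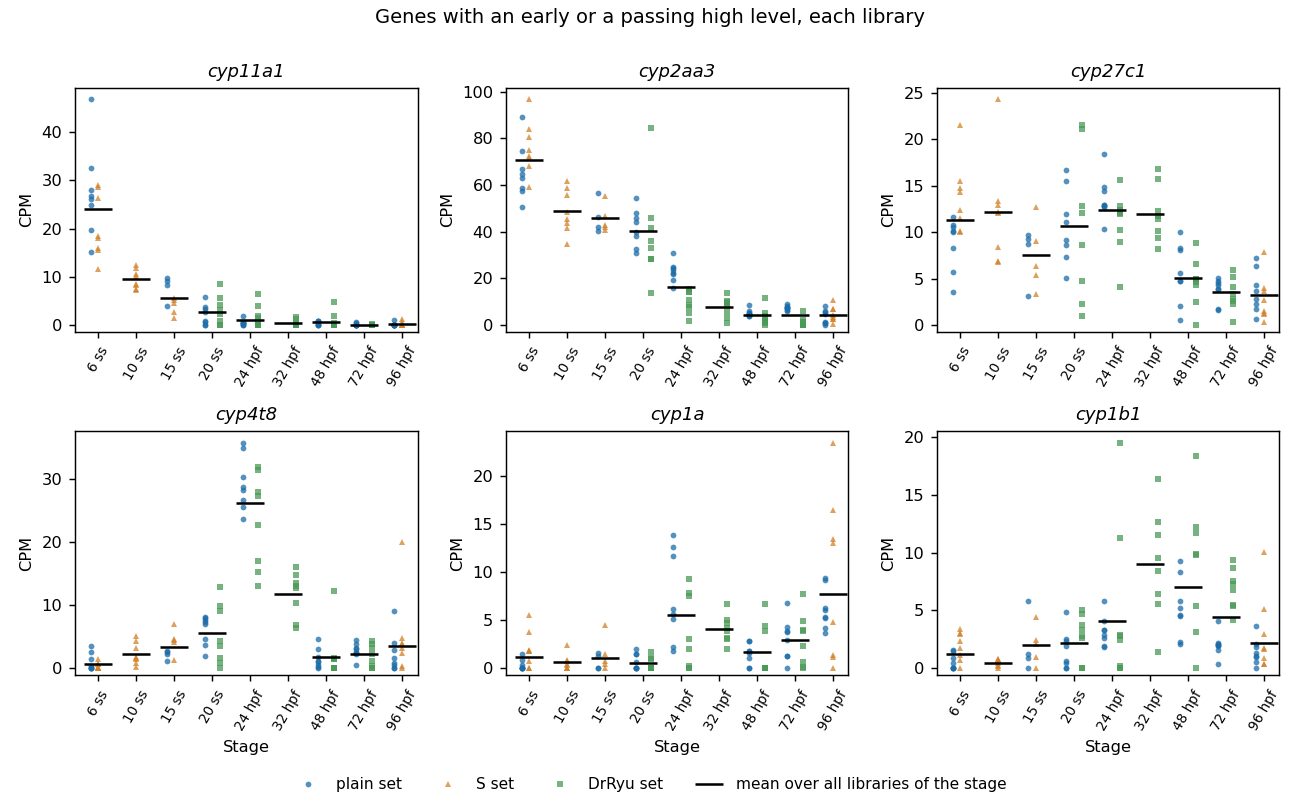
CPM of each library (points, coloured by library set) and the mean over all libraries of a stage (black bars) for 6 genes over the 9 stages. *cyp11a1* and *cyp2aa3* went down from 6 ss, *cyp27c1* was lower from 48 hpf on, and *cyp4t8* was highest at 24 hpf. *cyp1a* was up at 24 hpf and again at 96 hpf. *cyp1b1* had its highest mean, 8.98 CPM, at 32 hpf, where only DrRyu libraries exist.

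Of the 3 vitamin D genes, *cyp2r1*, the gene of the first activating step, was higher. It had 2 counts at 6 ss and read 0, 0.843 and 2.44 CPM at 24 hpf, 0, 2.45 and 12.9 at 48 hpf, and 1.12, 3.08 and 12.2 at 96 hpf. The 115 counts of 96 hpf gave a ratio of 72.7 over 6 ss (95% exact interval 19.7 to 607, adjusted p = 3.52e-09), without overlap, and those of 24 hpf a ratio of 23.5 (6.33 to 197, adjusted p = 5.48e-05). *cyp24a1*, which breaks vitamin D down, read 0.755, 5.22 and 16.3 CPM at 6 ss, 0, 0.570 and 4.43 at 48 hpf, and 0, 2.88 and 9.72 at 96 hpf, and fell by 1.38 on the log2 scale from 24 to 48 hpf (SE 0.562, adjusted p = 0.0445), a call lost in each set alone. *cyp27b1*, the second activating step, had no count at 96 hpf and 2 at 6 ss and was called in no comparison. The vitamin D receptor gene *vdrb* averaged 6.06 CPM at 96 hpf and 1.22 CPM at 6 ss (log2 fold change 2.33, adjusted p = 0.000282).

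*cyp27c1* makes the dehydro form of vitamin A that shifts zebrafish vision to the red. Its libraries read 3.51, 10.6 and 21.5 CPM at 6 ss, 4.08, 12.8 and 18.4 at 24 hpf, 8.17, 11.5 and 16.7 at 32 hpf, 0, 4.83 and 10.0 at 48 hpf, and 0.356, 2.79 and 7.85 at 96 hpf. The stages overlapped, and the gene fell by 1.3 on the log2 scale from 24 to 48 hpf (SE 0.272, adjusted p = 3.37e-05; -1.23 and 0.0793 within the DrRyu libraries) and by 1.78 over the full span (SE 0.297, adjusted p = 5.96e-08). *cyp20a1*, an orphan enzyme with no settled substrate, was highest at 10 ss, at 72.4, 80.5 and 94.6 CPM, and read 21.1, 30.5 and 48.7 CPM at 96 hpf, against 39.7, 54.0 and 81.0 CPM at 6 ss. Its full-span change of -0.96 had an adjusted p of 4.99e-12 and missed the fold limit.

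Genes that serve P450 enzymes were read against the 31.3% of all genes that were higher and the 19.4% that were lower at 96 hpf over 6 ss. Of 7 electron partners tested, 3 were higher and 1 lower at 96 hpf over 6 ss. *cyb5a*, cytochrome b5, averaged 61.1 CPM at 96 hpf and 25.0 CPM at 6 ss (log2 fold change 1.29, adjusted p = 1.52e-19), *cyb5r3*, its reductase, 27.7 and 9.70 CPM (1.49, adjusted p = 1.44e-14), and *fdx1b*, the ferredoxin of steroid synthesis, 0.992 and 0.0905 CPM (2.96, adjusted p = 0.00240). *fdx2*, a ferredoxin of iron-sulfur cluster assembly, averaged 20.5 CPM at 96 hpf and 67.1 CPM at 6 ss (-1.73, adjusted p = 4.27e-18). Of 9 nuclear receptors tested, 4 were higher and none lower. *nr1h4*, the bile acid receptor, read 1.06, 4.30 and 10.0 CPM at 96 hpf, against 0, 0 and 1.94 CPM at 6 ss (log2 fold change 5.23, adjusted p = 3.86e-09), and *nr1i2*, the receptor that induces family 3 genes in mammals, had 21 counts at 96 hpf and 3 at 6 ss. Of 7 genes of sterol synthesis and bile acid export, *hmgcra* (log2 fold change 2.91) and *abcb11b* (1.75) were higher and *sqlea* (-2.89) was lower.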

How the data were processed

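The deposited table holds estimated counts per gene symbol and library. Per the submitters' processing notes, the authors trimmed reads with fastp 0.21.0, aligned them to GRCz11 transcripts with BWA 0.7.17-r1188 and counted them with Salmon. The study's methods give an unstranded setting for Salmon, so a gene and its antisense partner cannot be told apart. Values were rounded to whole numbers (2 were not whole), 0 count columns were left unused, and no library was identical to another. Genes with 1 count in at least 8 libraries were fitted in edgeR 4.0.16 (limma 3.58.1, R 4.3.3) with TMM factors and terms for stage and library set, and compared by the quasi-likelihood test with Benjamini-Hochberg adjustment over all 21638 genes. CPM values use the TMM-scaled totals. The SE is the log2 fold change over the root of F. Summed counts of 1 to 3 have exact intervals, and the floor of a group at 0 is 3 counts over the group. A fold given as at least is the mean of the other group over that floor. It leaves out the counting error of that mean, which is large where the counts are few.

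Named were members of known role, the 5 called members with the largest change per direction and comparison, every other member once, and the fixed lists of pathway and marker genes. The members and lists were chosen with earlier results of these data known. The scripts were tested on simulated data. Alternatives were DESeq2 1.42.0, other size factors and filters, no set term, a replicate block, libraries left out and each set alone. *por* was not analysed here. Figures used Python 3.11.15 and matplotlib 3.10.9.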

Additional observations from a re-analysis of the deposited data

Results flagged for a closer look

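Within the groups of one stage and one library set, 10 libraries stood apart from the rest of their group in a member of known role, on the scale log2(CPM + 1). Such a test was made in 187 pairs of a member and a group, those with a count in every library, and chance gives about 1 in 20. The 10 libraries are near that share, so they are listed only and support no statement about these genes.

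*cyp27c1*, *cyp20a1* and *cyp24a1* had 7 of them. *cyp27c1* read 3.06 CPM in 15 ss plain replicate 2 (the others 8.70 to 9.63), 4.08 CPM in 24 hpf DrRyu replicate 5 (8.88 to 15.7) and 0.29 CPM in 72 hpf DrRyu replicate 6 (2.21 to 5.95). *cyp20a1* read 81.0 CPM in 6 ss plain replicate 3 (47.8 to 58.0) and 28.7 CPM in 24 hpf DrRyu replicate 1 (46.7 to 69.4). *cyp24a1* read 0.755 CPM in 6 ss S replicate S1 (3.39 to 7.99) and 1.96 CPM in 15 ss S replicate S5 (3.57 to 4.25).

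3 further genes had 1 such library each. *cyp1c1* read 0.355 CPM in 32 hpf DrRyu replicate 4 (3.06 to 7.47), *cyp11c1* 1.22 CPM in 96 hpf plain replicate 4 (2.35 to 3.65) and *cyp19a1b* 0.29 CPM in 48 hpf DrRyu replicate 1 (6.20 to 23.0). All but *cyp20a1* at 6 ss were low values.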

How the results depend on the processing

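At 96 hpf over 6 ss the members called higher numbered 28 to 40 and those called lower 8 to 12 over all alternatives, and 32 of the 39 higher calls were shared with DESeq2. Counts that moved by over 1.5 times were those of single steps. Plain libraries alone gave 5 lower at 24 hpf over 6 ss. DrRyu libraries alone gave 5 higher and 4 lower at 48 over 24 hpf, and 1 higher and 1 lower at 72 over 48 hpf. DESeq2 and edgeR's stricter filter each gave 1 lower at 72 over 48 hpf. For 96 over 72 hpf, DESeq2 and RLE size factors gave 0 lower, since *cyp2aa9* missed the fold limit at -0.96 and -0.95, and leaving out the set term or using plain libraries alone gave 2. The fitted change of *cyp2aa7* at 72 over 48 hpf was 1.39 in the plain libraries, which had no count at 48 hpf and 2 counts at 72 hpf, so it gives no direction. Leaving out each of the 9 libraries of 15 ss in turn gave 66 to 67 members that differed over the stages. With a replicate block 61 of 73 members differed over the stages, and 38 were higher and 9 lower over the full span. On the median of each pair of groups, same-numbered libraries hardly deviated together, with correlations from -0.011 to 0.015 (lowest single value -0.051). The highest single value is not given, so this speaks for groups and not for single libraries. Depth limits members of a few counts, where calls were lost under DESeq2, and a set alone has 8 or fewer libraries a stage, so a call lost there has fewer samples behind it.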
